A study of Mus musculus with 21 samples.

Results

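The 9 Toll-like receptor genes *Tlr1* to *Tlr9* and the adaptor gene *Myd88* were followed on single-color Agilent arrays of colon RNA from germ-free (GF) mice. These 10 genes were taken by name, through every non-control probe whose gene symbol or RefSeq record gives one of them, out of 27499 named genes on the arrays used at day 0 and 24191 on those used at day 7. All 10 were on both designs, with 20 probes at day 0 and 14 at day 7, and each gene is described by its probe with the highest mean signal. The arrays held total tissue of the colon of male C57BL/6J mice, bred without microbes, that were either wild type (GF WT) or deficient in *Card9* (GF *Card9*-/-). At day 0, before any dextran sodium sulfate (DSS) was given, 7 arrays were labelled GF *Card9*-/- and 6 were labelled GF WT. At day 7 of 2% DSS in the drinking water, a chemical that injures the colon epithelium and causes colitis, 4 arrays carried each label. The comparison asks whether the genes that sense microbes differ with the *Card9* genotype where no microbiota is present, before and during injury. Both genotypes lacked a microbiota and were fed a diet without yeast, so the GF WT arrays are no reference for a colonized colon. The age of these mice and the part of *Card9* that was deleted are not given in the sources used here.

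Toll-like receptors are membrane receptors that bind molecules shared by many microbes. TLR1, TLR2, TLR4, TLR5 and TLR6 sit at the cell surface and bind lipopeptides, lipopolysaccharide or flagellin, whereas TLR3, TLR7, TLR8 and TLR9 sit in endosomes and bind nucleic acids. All of these except TLR3 signal through MyD88, which assembles IRAK kinases and TRAF6 and leads to NF-kB and cytokine genes. CARD9 is an adaptor downstream of fungal receptors of the C-type lectin family and also leads to NF-kB. In the colon these receptors are found on macrophages, dendritic cells, B cells and, in part, on epithelial cells, so an array of total tissue sums over all of them, and fewer cells of a type and less RNA per cell cannot be told apart.

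The probes of *Tlr2*, *Tlr5*, *Tlr9* and *Myd88* are shown because the comparisons below turn on them, and those of *Tlr4* because they do not lie in one place. Each is 60 bases long, and its first 30 bases are given 5′ to 3′ from the deposited array files, with positions on mouse build mm9 (NCBI37). The files give the transcript record of each probe, and whether it lies in a coding or an untranslated stretch was not analysed here.

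*Tlr2*, both days, chr3:83640344-83640403, minus strand: ccttggatgaaggccagcaggaagtgtttt

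*Tlr5*, day 0, chr1:184905770-184905829, plus strand: acctccaggatgttggctggtttctcgata

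*Tlr5*, day 7, chr1:184906031-184906090, plus strand: ttgtctcactgttttccaaatggaaagtaa

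*Tlr9*, both days, chr9:106128979-106129038, plus strand: ctggttcccgagttgctctgcctgccttgc

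*Myd88*, both days, chr9:119245322-119245381, minus strand: ggtttgcatcttcttattcctttcacgttc

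*Tlr4*, day 0, brightest, chr4:66591199-66591258, plus strand: tcttccatagtttgtgcttcatgtccctgc

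*Tlr4*, day 0, other, chr4:66503724-66503782, plus strand: tgtgatagggctttaaatagttgagctaat

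*Tlr4*, day 7, brightest, chr4:66503470-66503529, plus strand: ttgagaacattttggggaggaagaaaggtc

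*Tlr2*, *Tlr9* and *Myd88* were read by the same probe at both days. *Tlr5* was read by different probes, and the brightest *Tlr4* probe of day 0 lies 87475 bases downstream of a probe for the RefSeq record of *Tlr4*, so the *Tlr4* values of the days come from different stretches. Because day 0 and day 7 also used different array designs, levels were not compared between the days.

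The labels run against the signal of the deleted gene. At day 0 *Card9* was at 8.90 ± 0.20 (log2 signal, SD, n = 7) on the arrays labelled GF *Card9*-/- and was not well above background on any of the 6 arrays labelled GF WT, a difference of at least 21.5-fold. A second *Card9* probe of day 0 was likewise well above background under the first label alone, and whether either lies in the deleted stretch is not known here. At day 7 it was between 7.93 and 8.57 on the arrays labelled GF *Card9*-/-, between 2.38 and 2.41 on 3 arrays labelled GF WT, and at 7.85 on the array labelled GF WT replicate 1. Genotypes are therefore named below only as labels, every difference is the mean under the GF *Card9*-/- label minus the mean under the GF WT label, and no direction can be tied to the genotype itself. The colonocyte markers *Car1*, *Slc26a3*, *Aqp8* and *Krt20* were well above background on every array of both days.

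None of the 10 genes differed between the labels after adjustment over all probes at either day. At day 0 12 of 47410 tested probes passed an adjusted p of 0.05 in limma (0.0253%), and at day 7 0 of 44643 did (0%). At an unadjusted p under 0.05 there were 3 of the 10 genes at day 0, *Tlr2*, *Tlr5* and *Tlr9*, all with a lower mean under the GF *Card9*-/- label, against 5.84% of all probes, and 0 of 10 at day 7 against 3.38%. At day 0 8 of 10 differences were below 0, with a median of -0.15 (range -0.73 to 0.11), where the median over all tested genes was 0.011. These include *Tlr4* at -0.0004, and the lowest value is that of *Tlr8*, which was near background. The median was -0.09 with normexp background correction or with dim values raised to the floor, each with 3 genes above 0. At day 7 4 of 10 were below 0, with a median of 0.0047 (range -0.45 to 0.46), where the median over all tested genes was -0.00096. Groups that did not overlap were found for 0 of the 10 genes at either day, against 0.458% of probes at day 0 and 2.13% at day 7.

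Of the lipopeptide receptors, *Tlr2* had the lowest unadjusted p of the 10 genes at day 0. TLR2 pairs with TLR1 or TLR6 to bind bacterial lipopeptides. The *Tlr2* log2 signal ran from 10.03 to 10.45 (median 10.29) on the 7 arrays labelled GF *Card9*-/- and from 10.42 to 11.36 (median 10.53) on the 6 labelled GF WT. Under the former label 6 of 7 arrays lay below the lowest of the latter, and replicate 6 overlapped with GF WT replicate 2 alone. The means were 10.25 ± 0.15 (SD, n = 7) and 10.68 ± 0.35 (SD, n = 6), a difference of -0.43 ± 0.14 (SE) with a 95% confidence interval of -0.74 to -0.12. The unadjusted p was 0.0108 and the adjusted p 0.623 in limma, and the two-sided exact permutation test over the arrays gave 0.00117, where 0.000583 is the smallest it can give. The difference did not pass the threshold across all probes.

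The *Tlr2* difference had the same sign on each of the 4 slides of day 0, which all held both labels. It was -0.45 on slide 1, -0.27 on slide 2, -0.35 on slide 3 and -0.99 on slide 4. Within the 2 scan sessions it was -0.33 and -0.55. The slide 4 value rests on the array labelled GF WT replicate 6, the highest of all at 11.36, and without that array the difference was -0.29 (adjusted p = 0.431).

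Macrophage markers were lower under the same label at day 0. All 13 of 13 had a mean below that of the GF WT label (median log2 difference -0.39), though none passed the threshold. Their mean log2 signal, centred on each gene's mean over the arrays, ran from -1.37 to 0.60 under the GF *Card9*-/- label and from -1.25 to 1.02 under the GF WT label, and at least 11 of 13 markers were well above background on every array. On GF WT replicate 6, the highest in *Tlr2*, this macrophage level was -0.56 and the level of the 10 colonocyte markers was -0.52, the lowest of the 13 arrays. The same array had the highest level of small intestine markers (1.52, with the next array at 0.76) and an adipocyte level of 1.68, below GF *Card9*-/- replicate 6 at 2.19. GF *Card9*-/- replicate 5 had the lowest adipocyte level of the 13 arrays (-4.55, with 4 of 8 markers well above background). The label difference of the mean adipocyte level was -0.10 with that array and 0.65 without it. Smooth muscle (7 of 7, median -0.45) and endothelium markers (6 of 6, -0.31) were also below 0, whereas T cell (7 of 7, 0.21), mesothelium (5 of 5, 0.91) and pancreas markers (8 of 8, 1.51) were above 0. The pancreas level was 10.23 on GF *Card9*-/- replicate 7 and from -1.28 to -0.09 on the other 12 arrays, and the label difference in its mean was 1.60 with that array and 0.0176 without it. The T cell level was 1.92 on GF *Card9*-/- replicate 6, and its mean difference was 0.30 with that array and 0.000251 without it. The mean difference of the macrophage level was -0.47, and it was -0.27 without GF *Card9*-/- replicate 5 and -0.76 without GF WT replicate 5. Dendritic cell markers, of another cell type that carries these receptors, were mixed (3 above and 4 below 0, median -0.06), and 7 of 8 B cell markers were below 0 (median -0.17). Without GF *Card9*-/- replicate 5 that of smooth muscle was -0.15 in place of -0.46 and that of endothelium -0.21 in place of -0.35, and without GF WT replicate 6 they were -0.76 and -0.57. The part of cell composition in the differences of *Tlr2*, *Tlr5* and *Tlr9* was not tested.

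The partners of TLR2 lay close between the labels. *Tlr1* ran from 11.05 to 11.78 under the GF *Card9*-/- label and from 11.22 to 11.67 under the GF WT label, a difference of -0.07 (95% confidence interval -0.33 to 0.20, adjusted p = 0.950). A second *Tlr1* probe, 121 bases away, gave -0.04, and the signals of the probes varied together over the 13 arrays (Pearson's r = 0.92 with the label means removed). *Tlr6* ran from 5.96 to 6.62 and from 6.01 to 6.74, a difference of -0.12 (-0.42 to 0.18, adjusted p = 0.915), or -0.21 without GF WT replicate 6. Both groups overlapped over nearly their whole range, and on both genes a difference of more than 0.42 in either direction lay outside the interval.

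*Tlr4*, the lipopolysaccharide receptor, did not separate the labels at day 0. Its brightest probe ran from 9.95 to 10.36 under the GF *Card9*-/- label and from 9.90 to 10.35 under the GF WT label, a difference of -0.0004 with a 95% confidence interval of -0.21 to 0.21. The probes for the RefSeq record gave -0.02 (-0.25 to 0.21) and 0.22 (-0.25 to 0.68), and over the 13 arrays they followed the brightest probe with r = 0.60 and r = 0.35. The interval of each of the 3 probes included 0. The brightest probe is for an Ensembl transcript record, not the RefSeq one. At day 7 another probe for that Ensembl record, from chr4:66590077, was well above background on 0 of 8 arrays. Whether the brightest day 0 signal is that of *Tlr4* was not tested.

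*Tlr5*, the flagellin receptor, was lower under the GF *Card9*-/- label in mean, with most of the spread on the other side. The log2 signal ran from 6.93 to 7.18 (median 7.10) on the 7 arrays labelled GF *Card9*-/- and from 7.07 to 8.22 (median 7.34) on the 6 labelled GF WT. The SD was 0.087 against 0.41, because GF WT replicate 6 stood at 8.22 while the next array was at 7.47. The difference was -0.36 ± 0.15 (SE, 95% confidence interval -0.70 to -0.03), with an unadjusted p of 0.0359, an adjusted p of 0.800 and an exact permutation p of 0.00758. It was -0.34, -0.33, -0.09 and -1.07 on slides 1 to 4 and -0.21 without GF WT replicate 6 (adjusted p = 0.562). A second *Tlr5* probe 431 bases away gave -0.41 (adjusted p = 0.907) and followed the first with r = 0.65, and without GF WT replicate 6 it gave -0.23.

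Of the nucleic acid receptors at day 0, *Tlr9* had the smallest spread. TLR9 binds DNA with unmethylated CpG motifs. Its log2 signal ran from 10.51 to 10.65 (median 10.61) on the arrays labelled GF *Card9*-/- and from 10.57 to 11.02 (median 10.76) on those labelled GF WT. The first 7 arrays lay within a narrow band with an SD of 0.047, and the array labelled GF WT replicate 4 lay inside that band. The difference was -0.18 ± 0.07 (SE, 95% confidence interval -0.33 to -0.04), with an unadjusted p of 0.0184, an adjusted p of 0.721 and an exact permutation p of 0.00816. It was below 0 on all 4 slides, from -0.05 on slide 3 to -0.44 on slide 4, and -0.13 without GF WT replicate 6.

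*Tlr3*, the receptor of double-stranded RNA, ran from 7.03 to 7.89 under the GF *Card9*-/- label and from 7.25 to 8.17 under the GF WT label. The difference was -0.18 (95% confidence interval -0.52 to 0.16, adjusted p = 0.912), and the second *Tlr3* probe gave -0.10. *Tlr7*, a receptor of single-stranded RNA, ran from 7.98 to 8.86 and from 7.99 to 9.29, a difference of 0.04 (-0.44 to 0.52, adjusted p = 0.989). GF WT replicate 6 was again the highest array of both genes, and without it the difference was -0.07 for *Tlr3* and 0.20 for *Tlr7*.

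The probes of *Tlr7* did not follow each other. A second probe 283 bases from the brightest one was well above background on 8 of 13 arrays and went against it over the arrays (r = -0.51), with a difference of -0.14, and the remaining *Tlr7* probe stayed at background on all 13. *Tlr8*, the neighbour of *Tlr7* on chromosome X, was near background on most arrays. Its brightest probe was well above background on 0 of 7 arrays labelled GF *Card9*-/- and on 1 of 6 labelled GF WT at day 0, so its difference of -0.73 (adjusted p = 0.900) compares values near background and no fold is given. Of its other 3 probes, one was well above background on GF *Card9*-/- replicate 3 alone (8.29) and another on GF WT replicate 6 alone (7.25).

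*Myd88*, the adaptor shared by these receptors, varied little and went the other way at day 0. Its log2 signal ran from 11.48 to 11.78 (median 11.61) on the 7 arrays labelled GF *Card9*-/- and from 11.39 to 11.66 (median 11.47) on the 6 labelled GF WT. The groups overlapped, with 2 of 7 arrays above the highest array labelled GF WT. The means were 11.61 ± 0.10 (SD, n = 7) and 11.50 ± 0.10 (SD, n = 6), a difference of 0.11 ± 0.06 (SE, 95% confidence interval -0.02 to 0.24, adjusted p = 0.912, exact permutation p = 0.0763). The difference was above 0 on all 4 slides, from 0.05 to 0.17. It was 0.08 without GF *Card9*-/- replicate 5, the highest array, and 0.14 without GF WT replicate 5. A difference of more than 0.24 lay outside the interval.

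**Figure D1:**
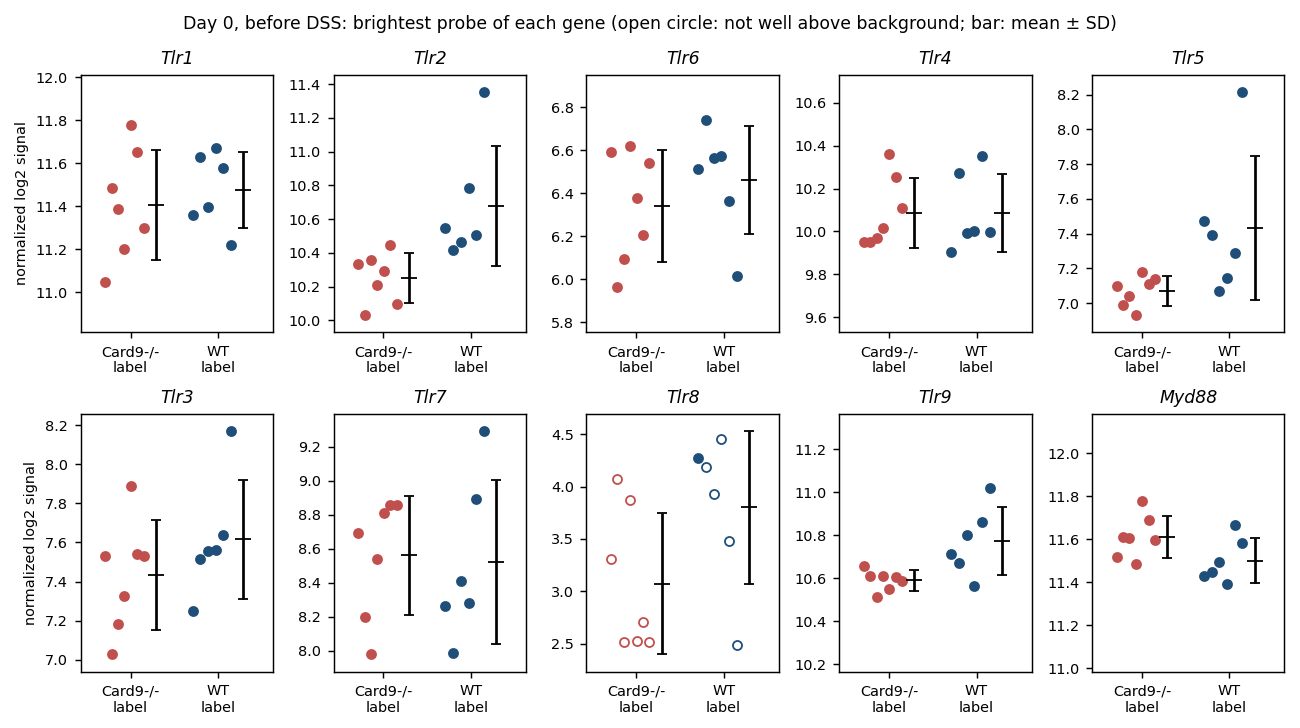
Normalized log2 signal of the brightest probe of each gene on the 13 day 0 arrays (y axis, scale differs by panel), with a point per array, red for the 7 arrays labelled GF Card9-/- and blue for the 6 labelled GF WT, open where the probe was not well above background, and the mean ± SD beside each group. The groups overlap for all 10 genes, and GF WT replicate 6 is the highest for *Tlr2* (11.36), *Tlr5* (8.22), *Tlr3*, *Tlr7* and *Tlr9*.

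**Figure D2:**
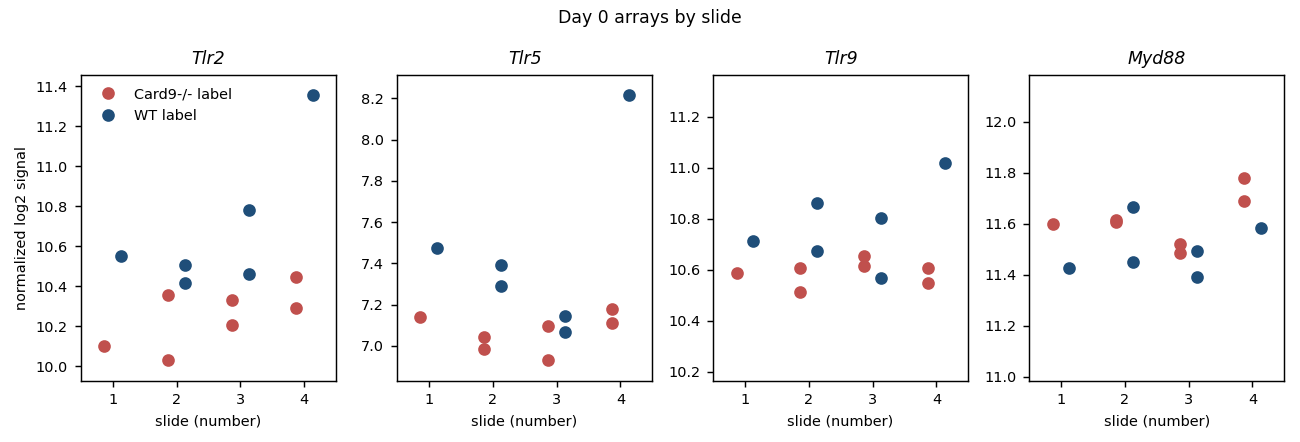
Normalized log2 signal (y axis) of *Tlr2*, *Tlr5*, *Tlr9* and *Myd88* on the day 0 arrays by slide (x axis), red for the GF Card9-/- label and blue for the GF WT label. *Tlr2* is lower under the GF Card9-/- label on each slide, by 0.99 on slide 4 and by less on the others, and *Myd88* is higher by 0.05 to 0.17.

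At day 7 of DSS the mean of *Tlr2* lay on the other side. The log2 signal was 10.03, 10.57, 10.55 and 10.26 on GF *Card9*-/- replicates 2, 2.1, 4 and 6, and 9.48, 10.44, 9.34 and 10.55 on GF WT replicates 1, 4, 5 and 6. Of the latter, replicates 1 and 5 lay below all other arrays and replicates 4 and 6 lay among those of the other label. Replicates 1 and 5 also had the lowest share of spots well above background of the 8 arrays (42.2% and 47.0%), the lowest level of adipocyte markers (-1.11 and -1.71, the others from -0.47 to 1.51) and the lowest level of small intestine markers (-0.50 and -1.42, the others from -0.32 to 0.81). They had the lowest level of goblet cell markers (-0.20 and -0.53, the others at least -0.12) and the highest level of plasma cell markers (0.99 and 1.15, the others at most 0.64) as well, and the part of these levels in the *Tlr2* difference was not tested. The difference was 0.40 ± 0.32 (SE, 95% confidence interval -0.34 to 1.14, adjusted p = 0.913, exact permutation p = 0.286). Within the 2 slides that held both labels it was -0.52 and 0.13. It was 0.24 without GF WT replicate 1, the array whose *Card9* signal was high, and 0.20 without GF WT replicate 5. The design holds this probe in 10 spots, of which at least 8 were used on each array, and their SD within an array was at most 0.086.

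The neutrophil markers lay higher under the GF *Card9*-/- label at day 7, with 10 of 10 differences above 0 (median 0.33) and none past the threshold. Their centred level ran from -0.02 to 0.66 under that label and from -0.44 to -0.17 under the GF WT label. *S100a9* (1.65) and *S100a8* (1.46), which encode calprotectin, did not overlap between the labels, as was the case for 2.13% of all probes, and *Retnlg* was at 1.66 (adjusted p = 0.913 for all 3). *S100a9* was well above background on 4 arrays labelled GF *Card9*-/- and 1 labelled GF WT, *S100a8* on 1 and 0, and *Mpo*, *Ngp* and *Cxcr2* on none. The differences and lack of overlap of *S100a9* and *S100a8* thus rest mostly on values near background under the GF WT label. For *S100a8* most values under the other label were near it too. The macrophage level overlapped, from -0.31 to 0.45 against -0.47 to 0.74. T cell (7 of 7, median 0.75) and B cell markers (8 of 8, 0.42) were above 0 as well, and smooth muscle markers below (7 of 7, -0.48). The widest marker differences of day 7 were those of pancreas (7 of 8 above 0, median 4.84, 3 not overlapping against 2.13% of all probes) and adipocyte markers (7 of 8, 1.23). The pancreas level was 3.93 and 7.90 on GF *Card9*-/- replicates 2.1 and 6, -2.14 and -0.84 on replicates 2 and 4, and from -2.35 to -1.96 on the arrays labelled GF WT. The mean difference of the B cell level was 0.46, and -0.0181 when GF *Card9*-/- replicate 2 was left out, and that of smooth muscle was -0.49, and -0.0693 when replicate 2.1 was left out. That of the T cell level was 0.74, and 0.48 without GF *Card9*-/- replicate 6, and that of the adipocyte level was 1.04, and 0.64 without GF WT replicate 5. Their part in the *Tlr2* difference was not tested.

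*Myd88* varied little at day 7. Its log2 signal was 10.80, 10.71, 10.64 and 10.76 under the GF *Card9*-/- label and 10.62, 10.71, 10.74 and 10.83 under the GF WT label. The difference was 0.0013 (95% confidence interval -0.22 to 0.23, exact permutation p = 0.971), with 10 spots an array whose SD was at most 0.101. *Tlr9* was 10.11, 10.18, 9.89 and 10.34 against 10.03, 10.03, 9.92 and 10.24, a difference of 0.08 (-0.23 to 0.38), which was 0.0077 without GF *Card9*-/- replicate 6 and 0.16 without replicate 4. *Tlr4* was 9.05, 8.87, 9.05 and 8.92 against 9.20, 8.92, 8.72 and 9.02, a difference of 0.0081 (-0.29 to 0.31). The labels overlapped in all 3 genes, and a difference of more than 0.38 in either direction lay outside the interval of each.

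The remaining receptors had wider intervals at day 7. *Tlr1* was 11.09, 10.71, 10.37 and 10.89 under the GF *Card9*-/- label and 11.11, 10.53, 11.00 and 10.73 under the GF WT label, a difference of -0.08 (-0.54 to 0.39). *Tlr7* was 8.38, 8.45, 7.20 and 8.06 against 7.25, 8.07, 7.30 and 8.05, a difference of 0.35 (-0.44 to 1.15), which was 0.21 without GF *Card9*-/- replicate 2.1 and 0.63 without replicate 4. Replicate 4 of the GF *Card9*-/- label was the lowest of the 8 arrays in *Tlr7* and in *Tlr1*. *Tlr6* differed by -0.0008 (-0.41 to 0.41) and was well above background on 7 of the 8 arrays, missing only on GF WT replicate 1.

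*Tlr3*, *Tlr5* and *Tlr8* were not well above background on all arrays of day 7. *Tlr3* exceeded background clearly on 3 of 4 arrays per label and differed by 0.46 (-0.86 to 1.79), by 0.09 without GF WT replicate 1 and by 0.89 without GF *Card9*-/- replicate 4. *Tlr5* did so on 1 of 4 per label, so its difference of -0.45 (-1.66 to 0.77) is a difference between values near background. It was -0.94 without GF WT replicate 1, the single case in which 1 of the 10 genes had an unadjusted p under 0.05 at day 7 (0.0266, adjusted p = 0.938), and -0.23 without GF *Card9*-/- replicate 4. *Tlr8* did so on none of the 8 with either of its probes. Their adjusted p-values ran no lower than 0.913 in limma, as for all 10 genes at day 7.

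**Figure D3:**
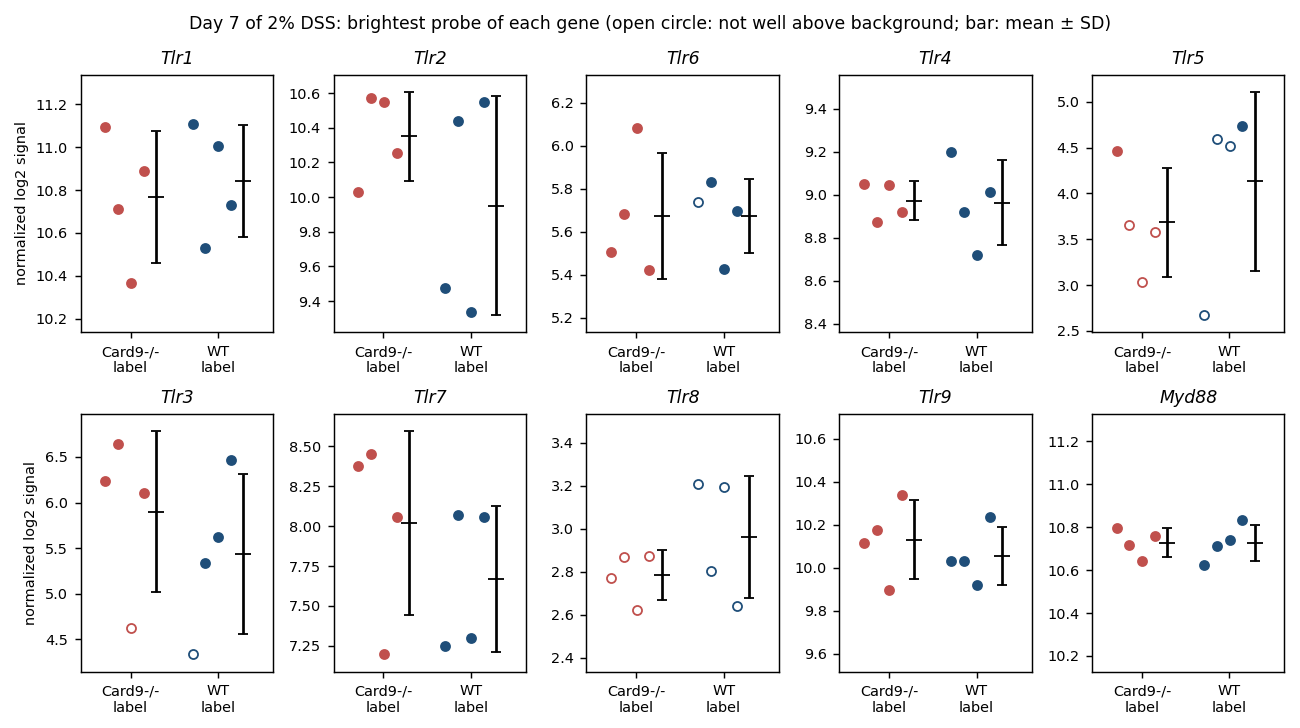
Normalized log2 signal of the brightest probe of each gene on the 8 day 7 arrays (y axis, scale differs by panel), with a point per array, red for the 4 arrays labelled GF Card9-/- and blue for the 4 labelled GF WT, open where the probe was not well above background, and the mean ± SD beside each group. In *Tlr2* the arrays labelled GF WT replicates 1 and 5 lie below all others (9.48 and 9.34), whereas *Myd88* stays between 10.62 and 10.83 on all 8 arrays.

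**Figure D4:**
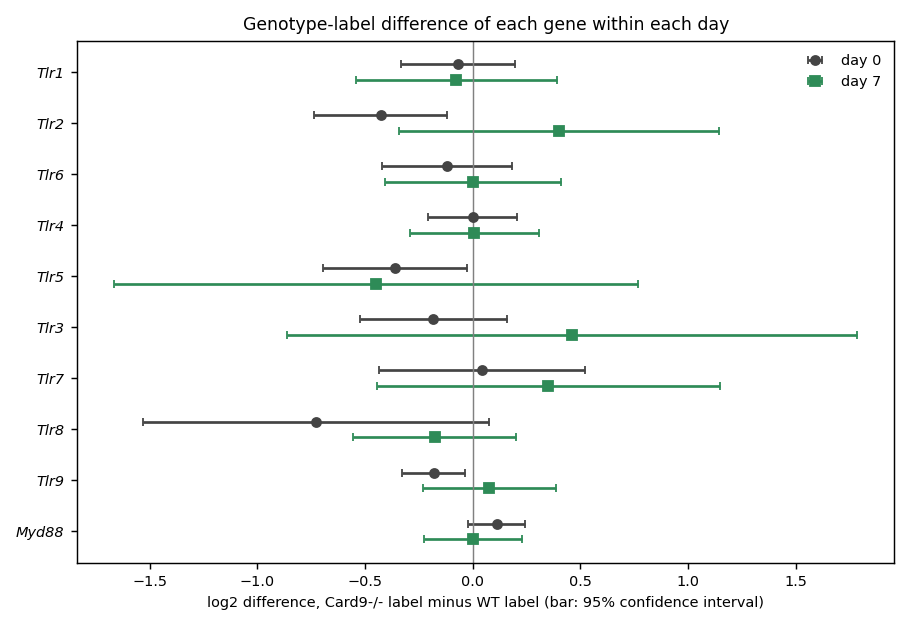
Log2 difference of each gene (x axis, GF Card9-/- label minus GF WT label) with its 95% confidence interval in limma, for day 0 (circles) and day 7 (squares). The unadjusted intervals of *Tlr2*, *Tlr5* and *Tlr9* at day 0 lie below 0, and those of all 10 genes at day 7 include 0.

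Whether the label difference itself differed between the days was tested for the 7 genes with a probe on both designs, *Tlr1*, *Tlr2*, *Tlr3*, *Tlr6*, *Tlr7*, *Tlr9* and *Myd88*, on the shared probe, which for *Tlr1* and *Tlr3* is the brightest one at day 7 only. None of the 7 passed the threshold, nor did any of the 23633 probes tested (0%). *Tlr2* was at -0.43 at day 0 and 0.40 at day 7, a day 7 minus day 0 difference of 0.83 ± 0.31 (SE, 95% confidence interval 0.17 to 1.48) with an unadjusted p of 0.0160 and an adjusted p of 0.566 in limma. For *Tlr9* it was 0.26 (-0.02 to 0.53, adjusted p = 0.700). For *Myd88* it was -0.11 (-0.33 to 0.11, adjusted p = 0.874), and the other 4 genes had unadjusted p-values from 0.304 to 0.868. For *Tlr2* it was 0.69 without GF WT replicate 6 of day 0 and 0.67 without GF WT replicate 1 of day 7.

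The other genes of the pathway were taken from 7 lists with 60 genes in all. Of the 56 tested at day 0 and the 57 tested at day 7, 0 passed the threshold in either direction, whereas 4 at day 0 (*Tab1*, *Tirap*, *Cyld* and *Irf3*) and 2 at day 7 (*Irak2* and *Cxcl1*) had an unadjusted p under 0.05, where 5.84% and 3.38% of all probes did. At day 0 27 differences were above 0 and 29 below, with a median of -0.0026, and at day 7 33 were above and 24 below, with a median of 0.09. The day 7 target genes had the highest median of the 7 lists on that day (0.57, 9 of 11 above 0), though 5 of these 11 genes were not well above background on 60% of the arrays of a label.

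Close to the receptors, the mouse receptors *Tlr11*, *Tlr12* and *Tlr13* were below 0 in all 3 cases at day 0, with *Tlr12* at -0.43 (adjusted p = 0.922). At day 7 2 of the 3 were above 0, with a range from -0.20 to 0.82, and *Tlr13*, a receptor of bacterial ribosomal RNA, was at 0.41 (adjusted p = 0.913). Of the 10 co-receptors and trafficking factors, which include *Cd14*, *Ly96* and the endosomal chaperone *Unc93b1*, the widest difference was that of *Cd36*, a scavenger receptor that assists TLR2, with -0.51 at day 0 and 0.60 at day 7. Both lay within the spread between arrays (adjusted p = 0.924 and 0.913).

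Of the adaptors, *Tirap*, which brings MyD88 to TLR2 and TLR4, ran from 10.38 to 10.67 under the GF *Card9*-/- label and from 9.98 to 10.41 under the GF WT label at day 0. The difference was 0.27 ± 0.08 (SE) with an adjusted p of 0.469 and an exact permutation p of 0.00175, and at day 7 it was -0.25 (adjusted p = 0.913). Of the kinases and their partners, *Tab1*, which binds the kinase TAK1, was the single gene of the 56 tested whose labels did not overlap at day 0, where 0.458% of all probes did not. It ran from 12.05 to 12.27 under the GF *Card9*-/- label and from 12.34 to 12.57 under the GF WT label, a difference of -0.27 ± 0.05 (SE). The unadjusted p was 0.00017 and the adjusted p 0.154 in limma, so *Tab1* did not pass the threshold, and at day 7 the difference was -0.09.

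At day 7 the widest difference among the kinases and their partners was that of *Ikbkg*, the regulatory subunit of the IKK complex, with -0.43 (adjusted p = 0.913). Among the transcription factors it was that of *Fos* at day 0 (0.37, adjusted p = 0.912) and of *Irf7*, a factor of interferon genes, at day 7 (0.67, adjusted p = 0.913). Among the inhibitors it was that of *Socs1* at day 0 (0.18) and of *Il1rl1*, a receptor of the IL-1 family that can draw off MyD88, at day 7. *Il1rl1* ran from 4.58 to 10.39 under the GF *Card9*-/- label and from 3.69 to 8.34 under the GF WT label, so its difference of 2.24 lay within the spread (adjusted p = 0.913). Among the target genes it was that of the chemokine gene *Ccl5* at day 0 (0.52, adjusted p = 0.912) and of *Saa3*, an acute phase protein gene, at day 7. *Saa3* ran from 3.44 to 10.02 and from 2.77 to 8.79, and its difference of 2.50 had an adjusted p of 0.913.

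**Figure D5:**
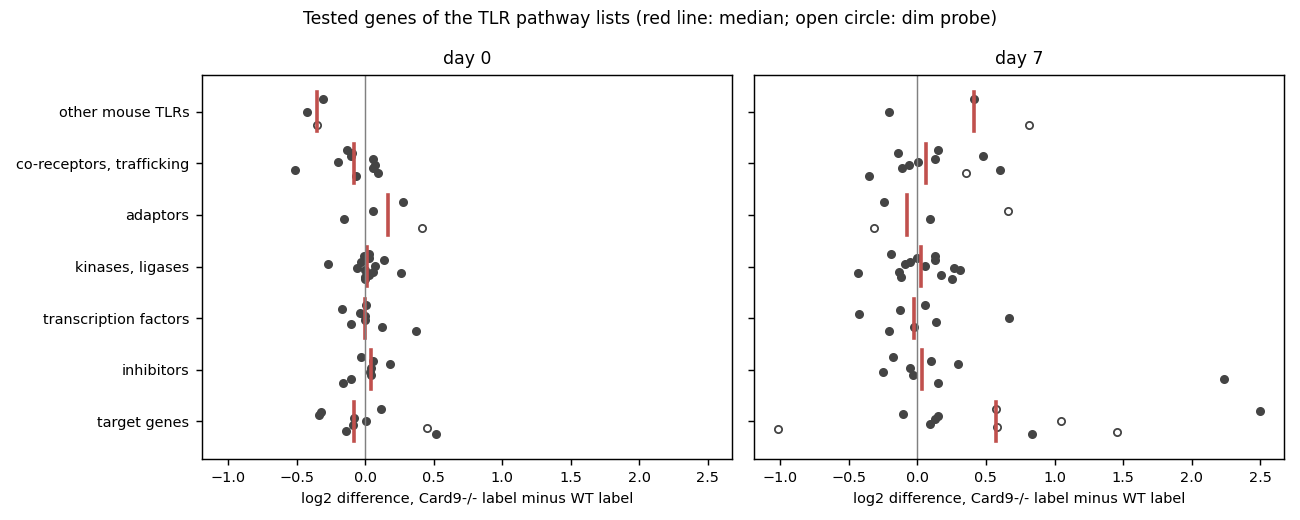
Log2 difference (x axis, GF Card9-/- label minus GF WT label) of each tested gene of the 7 pathway lists at day 0 and day 7, with the median of a list as a red line and genes whose probe was not well above background on 60% of the arrays of a label as open circles. Day 0 differences stay between -0.51 and 0.52, while at day 7 *Il1rl1* (2.24) and *Saa3* (2.50) lie farthest from 0.

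Over the 13 day 0 arrays, with the label means removed, some of the receptors varied together. The description covers 36 pairs of the 9 genes that were well above background on all 13 arrays, which share slides and normalization, and carries no test. *Tlr7* is read here by its brightest probe, which a second probe 283 bases away went against (r = -0.51). That second probe was well above background on 8 of 13 arrays. The highest Pearson's r were those of *Tlr3* with *Tlr7* (0.82), *Tlr2* with *Tlr5* (0.77) and *Tlr7* with *Tlr9* (0.74). With slide means removed too, these were 0.66, 0.78 and 0.76, and the highest was then that of *Tlr6* with *Tlr4* (0.80, from 0.11). The value of *Tlr2* with *Tlr5* rests on GF WT replicate 6, and without that array it was -0.0120 (0.21 with slide means removed), while *Tlr3* with *Tlr7* was 0.70 and *Tlr7* with *Tlr9* 0.54, and the highest were *Myd88* with *Tlr4* (0.77) and *Tlr4* with *Tlr3* (0.71). *Tlr1* went against *Tlr5* (-0.28, and -0.88 with slide means removed) and against *Tlr9* (-0.51 and -0.83), and without GF WT replicate 6 the former was 0.16 (-0.46 with slide means removed) and the latter -0.37 (-0.68). *Myd88* had its highest r with *Tlr4* (0.69), and with *Tlr7* once slide means were removed (0.58, or -0.0267 without GF WT replicate 5). All *Tlr4* values here are those of its brightest probe, which the probes for the RefSeq record followed with r = 0.60 and r = 0.35 only.

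Of 15498 genes well above background on all 13 arrays, those whose signal was most like that of a member were *Slc26a2* (r = 0.96) and *Slc1a1* (0.95) for *Tlr1*, *Pmm1* (0.92) and *Tnfaip8l1* (0.88) for *Tlr2*, *Coq7* (0.96) and *Ndufaf8* (0.96) for *Tlr3*, and *Znrd1* (0.95) and *Klk12* (0.93) for *Tlr4*. They were *C88045* (0.94) and *Galnt11* (0.93) for *Tlr5*, *Poglut3* (0.89) and *Rab40b* (0.87) for *Tlr6*, and *Timmdc1* (0.97) and *4930438E09Rik* (0.96) for *Tlr7*. For *Tlr9* they were *Ceacam12* (0.93) and *Gm33989* (0.93), and for *Myd88* *Ovol2* (0.94) and *Alkbh4* (0.94). With slide means removed all 18 values stayed between 0.76 and 0.98. The highest of so many correlations over 13 arrays are high by selection. Those for *Tlr4* and *Tlr7* carry the limits of their brightest probes given above.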

How the data were processed

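Single-color arrays were read by the authors with Feature Extraction 10.7.3.1, and the deposited intensity values are linear processed signals with background removed and no scaling across arrays. For each spot the authors' software gives a p-value against its background, which is small for spots dimmer than background too. The authors also deposited log2 values per design, used here as an alternative. The processed signal was log2-transformed, quantile normalized over the arrays of a day, stripped of control and outlier spots and averaged per probe. Testing required a background p-value below 0.05 on 60% or more of one label's arrays and at least 2 values per label, so that dim probes such as that of *Tlr8* passed. Well above background is the flag of Feature Extraction. Probes were named through their RefSeq record (assembly GRCm38.p6, names only) or the symbol in the files. At day 0 RefSeq named 32994 of 56605 probes, the files 13297 more, and 10314 had no name.

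Labels were compared within each day with limma 3.58.1 in R 4.3.3 (lmFit and eBayes, Benjamini-Hochberg over all tested probes, threshold 0.05), tested on simulated data first. The change between days was fitted jointly on probes of both designs. Exact permutation tests are two-sided, and 0.0286 is the smallest p they can give at day 7. Between 42.2% and 64.9% of an array's spots were well above background, and precision is limited by how many arrays there are. The labels do not say whether replicates are separate mice, so p-values measure the spread between these samples, which may be technical. The arrays labelled GF *Card9*-/- replicates 2 and 2.1 differed by an SD of 0.852, where other pairs of a label had a median of 0.907, and were counted as 2. Day 0 arrays lay on 4 slides and day 7 arrays on 6. Members, lists and tests were chosen with earlier results of these data known. Named genes are the members, *Card9*, list genes past the threshold, and in each pathway list and day the gene with the widest difference among those well above background on 60% of the arrays of a label, and the 2 genes with the highest correlation to a member; *Tlr11*, *Cd14*, *Ly96* and *Unc93b1* are named for their role, and *Cyld*, *Irf3*, *Irak2*, *Cxcl1* and the single marker genes were named after their values were seen. Alternatives were other scalings, background corrections, filters, probe averages, slide and replicate blocks, and leaving out each array. Leaving out arrays for correlations, marker levels and second probes was added after the data were seen.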

Additional observations from a re-analysis of the deposited data

Results flagged for a closer look

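Of 40 groups of arrays (10 genes, both labels, both days), 2 held an array whose gap to its nearest neighbour, as a share of the range of its group, exceeded Dixon's 95% limit, where chance gives about 1 group in 20. The array labelled GF WT replicate 6 of day 0 stood apart in *Tlr5*, at 8.22 with the next array at 7.47 (gap 0.647 of the range). The array labelled GF WT replicate 1 of day 7 stood apart in *Tlr5*, at 2.67 with the next at 4.52 (gap 0.893), and was not well above background there. In *Card9* the array labelled GF WT replicate 1 of day 7 stood apart at 7.85 (gap 0.995), and the array labelled GF *Card9*-/- replicate 2.1 at 8.57 (gap 0.856).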

How the results depend on the processing

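The counts of members and of pathway genes past the threshold were 0 in all settings run, including the slide block and every array left out. The reversals concern differences that did not pass the threshold. At day 0 *Tlr4* was 0.0144 with 75th percentile scaling, 0.0030 with normexp, 0.0083 in the authors' table and 0.0653 as the mean over its probes, *Tlr8* was 0.0720 with dim values raised to the floor, and *Tlr7* was -0.0496 as the mean over its probes, -0.0278 with slide as a block and -0.0082 with the replicate block. At day 7 *Tlr6* was 0.0051 with 75th percentile scaling, 0.0239 with normexp and 0.0262 with replicates 2 and 2.1 averaged. *Tlr4* was -0.0089 with normexp and -0.0369 in the authors' table, and *Tlr8* was 0.0795, 0.0900 and 0.0280 with normexp, the authors' table and the floor. *Myd88* was -0.0036 with normexp, -0.0087 in the authors' table, -0.0072 with the replicate block and -0.0080 with replicates 2 and 2.1 averaged. The cause was not tested. Over the arrays left out one by one, *Tlr4* ran from -0.0457 to 0.0522 and *Tlr7* from -0.0656 to 0.20 at day 0, and *Tlr1* from -0.19 to 0.0565, *Tlr4* from -0.0727 to 0.0860, *Tlr6* from -0.14 to 0.0825 and *Myd88* from -0.0331 to 0.0362 at day 7. The difference between the days ran from -0.15 to 0.0947 for *Tlr1* and from -0.0177 to 0.21 for *Tlr6*. At day 0 *Tlr2* stayed between -0.48 and -0.29, *Tlr5* between -0.43 and -0.21 and *Tlr9* between -0.22 and -0.13.

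Of all probes at day 0, 12 passed the threshold, against 27 with normexp, 22 in the authors' table, 22 with the filter on probes well above background and 7 with the replicate block. Arrays with the same replicate number did not deviate together throughout: the correlation of their deviations ran from -0.02 to 0.37 over 6 pairs at day 0, and was 0.11 and 0.03 over 2 pairs at day 7. The replicate block left 0 members past the threshold at both days. At day 7 1 probe of 47457 passed without GF WT replicate 1, and it was no member. Signal near background limits *Tlr8* at both days and *Tlr5* at day 7.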
